A study of Mus musculus with 6 samples.

Results

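The genes described here are those of Wnt signalling at the cell surface and outside the cell: the Wnt ligands, their frizzled and LRP receptors, the R-spondins with their LGR receptors, the secreted antagonists, and Axin2. They were taken by symbol, as every gene named Wnt, Fzd, Sfrp, Dkk or Rspo with a number, plus Wif1, Frzb, Lrp5, Lrp6, Axin2, Lgr4, Lgr5, Lgr6 and Notum, which gave 50 genes of the 40842 reference genes in each table. Their RNA levels were read in whole lung of wild-type female C57BL/6N mice, from 3 untreated libraries (control 1 to 3) and 3 libraries taken 100 days after a single exposure to 20 Gy of 9 MeV electrons (irradiated 1 to 3). The comparison asks how lung RNA at this late time differs from that of untreated mice of the same series, whose title concerns radiation pneumonitis. Neither the exposed part of the body nor the age of the mice is named in the labels. Nor do they state that each library is a mouse of its own. The p-values therefore refer to the variation among these 6 libraries, which could be technical. Whole lung mixes all cell types, so fewer cells of a type and less RNA per cell cannot be told apart.

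Wnt proteins are lipid-bearing secreted signals that bind a frizzled receptor together with LRP5 or LRP6. Binding stops the breakdown of β-catenin, which then drives transcription with TCF and LEF factors, and some Wnts act through frizzleds without β-catenin. R-spondins bound to LGR receptors raise the amount of frizzled at the surface, while the SFRP, DKK, WIF1 and NOTUM proteins act against Wnts outside the cell. In lung the pathway is known for its part in organ formation and in the upkeep of alveolar type 2 cells by Wnt-producing fibroblasts.

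Lung expressed a wide set of these genes in both groups, and none passed the test between groups. Levels are FPKM, scaled for transcript length and library size, so genes can be set side by side. Of the 50 genes, 29 reached the mean of 1 FPKM over the 6 libraries that the test required, 8 lay between 0.1 and 1 FPKM, and 13 lay below 0.1 FPKM. For most of them FPKM and the deposited coverage, put on the same scale, gave the same level, but in 5 of the 29 FPKM was over 1.5 times higher in at least 1 library (Wnt11, Wnt5a, Fzd4, Axin2 and Notum). The highest mean FPKM over all libraries were those of the receptor gene Fzd4 (27.8 FPKM), the DKK family member Dkk3 (26.1 FPKM) and the co-receptor gene Lrp5 (22.8 FPKM). On coverage the order was Dkk3 (25.2), Lrp5 (22.7) and Fzd4 (17.2). With limma, 0 of the 29 had a Benjamini-Hochberg adjusted p under 0.05, where 0.180% of all 13908 genes tested did (0.0647% higher and 0.115% lower). An unmoderated linear model also called 0, with 5 of the 29 (17.2%) and 15.2% of all genes at an unadjusted p under 0.05. The lowest adjusted p was 0.104, for Rspo1. With limma, an unadjusted p under 0.05 was reached by 7 of the 29, or 24.1%, against 17.7% of all genes tested. Lower in irradiated lung were 5 of them (Rspo1, Sfrp2, Wnt2, Fzd2 and Wnt7a), where 10.3% of all genes were lower at this p, and higher were 2 (Lrp5 and Wif1), where 7.41% of all genes were.

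All 3 irradiated values lay outside the range of the 3 controls for 7 of the 29 genes, which is 24.1%, against 24.5% of all genes tested. On the lower side there were 5 (Rspo1, Sfrp2, Fzd2, Wnt2 and Wnt3a), or 17.2% against 14.6%, and on the higher side 2 (Lrp5 and Wif1), or 6.90% against 9.91%. These shares are near the background, so the counts are no result about the family. With FPKM rescaled to a common sum the split was 3 higher and 4 lower (2856 and 907 of all genes, in place of 1378 and 2035), and with median-ratio scaling 3 higher and 6 lower (1769 and 1781 of all genes). The log2 changes, taken as irradiated minus control after 1 was added to the FPKM, were positive for 10 and negative for 19 of the 29, with a median of −0.07. Over all genes tested the median was −0.03.

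**Figure D1:**
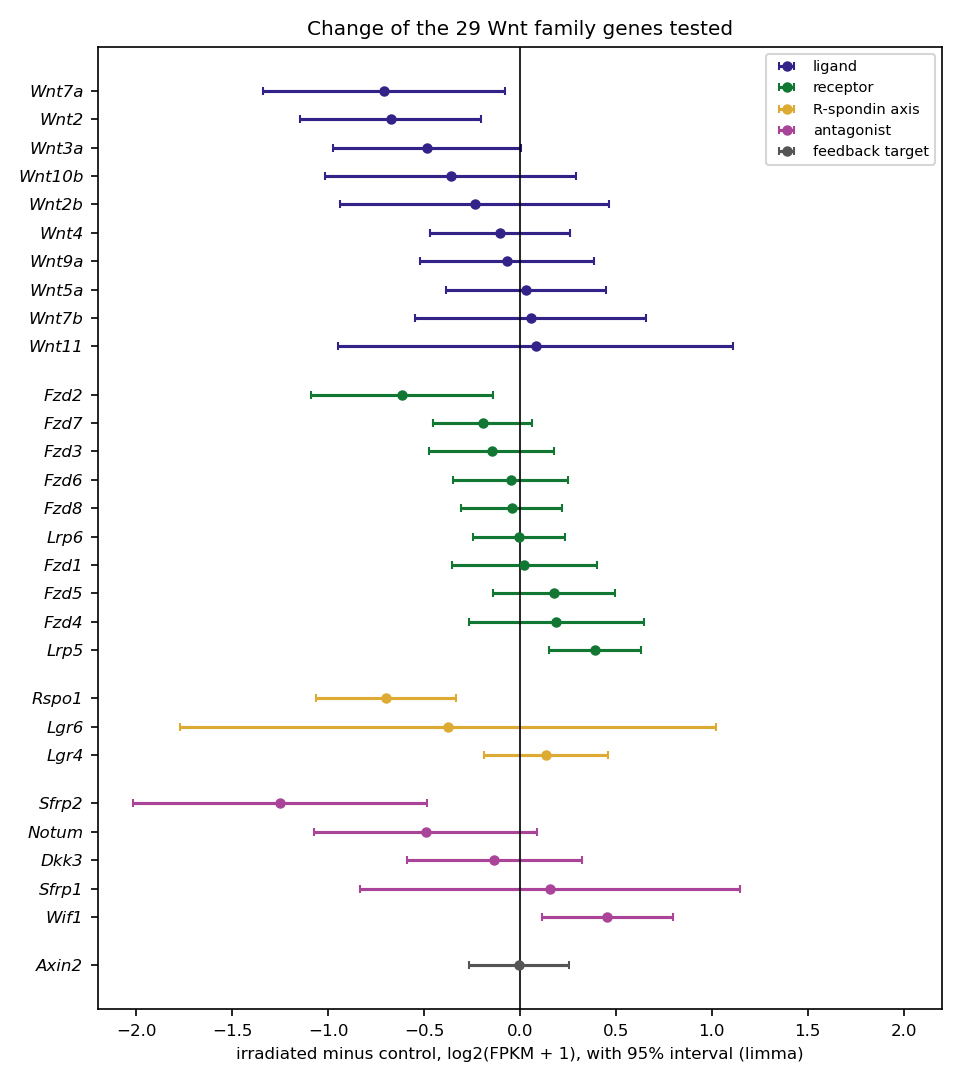
Change of each tested gene as the difference of log2(FPKM + 1), irradiated minus control, with the 95% interval from limma (n = 3 libraries per group), ordered within each role. The intervals of Wnt7a, Wnt2, Fzd2, Rspo1 and Sfrp2 lie below 0 and those of Lrp5 and Wif1 above 0, before adjustment for the number of genes; that of Axin2 is centred near 0.

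The stretches of DNA before the starts of 6 of these genes are shown. Rspo1, Sfrp2 and Wnt2 were lower and Wif1 higher in irradiated lung, though none passed the test. Axin2 is the common read-out of β-catenin activity, and Wnt11 shows what a TCF/LEF match looks like. Each stretch is the 250 bases before the gene's start, 5′ to 3′ on the gene's strand, from RefSeq on GRCm38.p6. That build is not the GRCm39 of the expression files, and the table held 32 of the 50 genes in 35 windows. Capitals mark the form of the TCF/LEF core that was searched, CTTTGA or TCAAAG on the other strand. They also mark the GC box, GGGCGG or CCGCCC on the other strand. Matches that touch or overlap run together.
Rspo1, chr4:124986180-124986429, plus strand: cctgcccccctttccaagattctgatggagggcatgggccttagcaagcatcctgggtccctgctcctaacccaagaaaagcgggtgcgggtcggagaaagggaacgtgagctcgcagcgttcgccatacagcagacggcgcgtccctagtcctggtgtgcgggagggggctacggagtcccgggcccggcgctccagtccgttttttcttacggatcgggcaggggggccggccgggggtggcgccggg
Sfrp2, chr3:83766071-83766320, plus strand: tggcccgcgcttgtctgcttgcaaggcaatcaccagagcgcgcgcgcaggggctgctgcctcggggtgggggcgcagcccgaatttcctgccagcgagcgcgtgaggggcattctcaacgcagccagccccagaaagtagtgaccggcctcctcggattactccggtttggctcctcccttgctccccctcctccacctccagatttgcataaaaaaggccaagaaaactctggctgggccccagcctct
Wnt2, chr6:18030446-18030695, minus strand: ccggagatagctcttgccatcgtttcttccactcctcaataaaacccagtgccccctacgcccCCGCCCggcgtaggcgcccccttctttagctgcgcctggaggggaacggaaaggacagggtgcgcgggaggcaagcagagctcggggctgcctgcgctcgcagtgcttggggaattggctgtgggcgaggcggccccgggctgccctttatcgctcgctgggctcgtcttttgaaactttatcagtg
Wif1, chr10:121033754-121034003, plus strand: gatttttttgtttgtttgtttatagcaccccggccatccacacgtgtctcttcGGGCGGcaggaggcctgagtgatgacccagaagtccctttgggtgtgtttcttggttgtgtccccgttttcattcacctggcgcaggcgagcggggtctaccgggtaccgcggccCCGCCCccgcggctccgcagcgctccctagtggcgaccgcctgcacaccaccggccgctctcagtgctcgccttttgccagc
Axin2, chr11:108920099-108920348, plus strand: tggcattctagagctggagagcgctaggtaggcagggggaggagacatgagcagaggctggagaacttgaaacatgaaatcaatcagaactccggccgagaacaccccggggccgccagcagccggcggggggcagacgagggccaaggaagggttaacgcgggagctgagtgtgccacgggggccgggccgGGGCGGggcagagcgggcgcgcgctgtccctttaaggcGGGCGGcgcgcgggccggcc
Wnt11, chr7:98834862-98835111, plus strand: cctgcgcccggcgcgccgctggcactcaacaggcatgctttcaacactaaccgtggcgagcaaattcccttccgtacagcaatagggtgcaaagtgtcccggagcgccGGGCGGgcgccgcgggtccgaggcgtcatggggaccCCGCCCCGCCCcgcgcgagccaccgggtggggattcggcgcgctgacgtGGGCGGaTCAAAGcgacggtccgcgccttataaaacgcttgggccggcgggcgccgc

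The Rspo1 and Sfrp2 windows hold neither motif, that of Wnt2 holds 1 GC box, those of Wif1 and Axin2 hold 2 each, and the Wnt11 window shown holds 4 GC boxes and a TCF/LEF core that begins 50 bases before the start. A second start of Wnt11 in the table has a window with neither motif. The windows of Wnt3a and Wnt7a, which also had lower means in irradiated lung, are not shown. They hold 9 and 6 GC boxes and no match to the TCF/LEF core, so the lower genes do not share a lack of GC boxes. The TCF/LEF core was found in 5 of the 35 windows (14.3%), before Frzb, Fzd1, Dkk1, Wnt5b and Wnt11, against 13.8% of the 32851 windows of all genes in the table. The GC box was found in 25 of the 35 (71.4%) against 32.7% of all windows. The windows of the family were also richer in G and C, with a median of 66.8% against 52.4%. A match is a run of letters and not a shown binding site. A missing match covers only this window and the form searched, and other forms of the TCF/LEF core were not counted.

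Among the ligands, Wnt2 was lower in every irradiated library. Wnt2, a ligand made by lung mesenchyme that acts in early lung formation, had 5.17, 5.35 and 6.44 FPKM in the controls, numbered 1 to 3, while the irradiated libraries had 3.14, 2.21 and 4.40 FPKM. The groups did not overlap, with irradiated 2 lowest. The mean was 57.5% of the control mean, from 5.65 ± 0.686 to 3.25 ± 1.10 FPKM (SD, n = 3), with a log2 change of −0.67 ± 0.20 (SE), an unadjusted p of 0.0118 and an adjusted p of 0.172 with limma. Beside it, 8 of 9 markers of alveolar fibroblasts had negative changes, where 55.8% of all genes tested were negative. With limma 1 of the 9, Scn7a, was called lower (adjusted p = 0.0447), where 0.115% of all genes tested were. The groups of 4 of the 9 lay apart on the lower side, where 14.6% of all genes did. The summed level of the 9 was 1838 to 2010 FPKM in the controls and 1153 to 2015 in the irradiated libraries, with no marker at 0, so the sums of the groups overlapped. Most of that sum was Inmt, at 1173 to 1387 FPKM in the controls and 639 to 1438 FPKM in the irradiated libraries. Markers of other cell types were read too. Of 6 pericyte markers 5 had negative changes, as had 5 of 6 smooth muscle markers, with 0 called and all groups overlapping. All 7 alveolar type 2 markers had negative changes, with 0 called, and for 5 of the 7 the groups lay apart on the lower side. Their sums did not overlap (17719 to 19658 against 10932 to 12084 FPKM) but were mostly Sftpc (14677 to 16828 against 8741 to 9588 FPKM). Of 8 endothelial markers 7 had negative changes, with 1, Aplnr, called lower. The sums of the 8 overlapped (792 to 1053 against 629 to 857 FPKM). Groups lay apart on the lower side for 4 of the 8, where 14.6% of all genes did. These were Aplnr, Tek, Kit and Gpihbp1, with log2 changes of −2.25, −1.22, −0.74 and −0.70. Those of Pecam1, Cdh5, Cldn5 and Plvap overlapped, with log2 changes of 0.0070, −0.13, −0.20 and −0.52. The part of these cells in the Wnt2 values was not tested. The gene lies on chromosome 6 from 17988939 to 18032771, minus strand (GRCm39).

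Wnt7a, another ligand of the family, was at 4.26, 5.48 and 6.27 FPKM in the controls and at 3.08, 1.62 and 4.29 FPKM in the irradiated libraries. Irradiated 3 lay just above control 1, so the groups overlapped in FPKM (on coverage they did not), and irradiated 2 was lowest again. The log2 change was −0.71 ± 0.27 (limma adjusted p = 0.241), and it was −0.44 without irradiated 2. Wnt3a, a ligand widely used to switch on β-catenin signalling in culture, was at 7.98, 7.78 and 7.53 FPKM in the controls, a narrow range, and at 6.21, 3.44 and 6.65 FPKM in the irradiated libraries. Every irradiated value was below every control, but most of the difference came from irradiated 2. The log2 change of Wnt3a was −0.49 ± 0.21 (limma adjusted p = 0.286) with all libraries and −0.24 without irradiated 2.

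In FPKM the ligands with the highest means were Wnt11 and Wnt10b, and both varied widely within each group. The rank depends on the measure: Wnt11 had 1.65 to 2.08 times and Wnt10b 1.26 to 1.35 times the level that coverage gives, and on coverage Wnt3a was highest, before Wnt10b with a mean of 5.62, while Wnt11 had 4.18. Wnt11, a ligand known mostly for signalling without β-catenin, was at 8.85, 10.5 and 4.41 FPKM in the controls and at 7.90, 4.47 and 14.0 FPKM in the irradiated libraries. Its lowest and second-lowest values came from different groups, and the 95% interval of its log2 change ran from −0.95 to 1.11. Wnt10b was at 9.54, 6.16 and 9.15 against 4.49, 5.20 and 9.61 FPKM. Here irradiated 3 was the highest of the 6 libraries and irradiated 1 the lowest, with a log2 change of −0.36 ± 0.27 (limma adjusted p = 0.532). It was −0.17 without irradiated 1 and −0.65 without irradiated 3.

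For the remaining 5 tested ligands the groups overlapped and the log2 changes lay between −0.24 and 0.06. Wnt4 had means of 3.93 ± 0.507 and 3.60 ± 0.711 FPKM, Wnt9a of 3.56 ± 0.538 and 3.41 ± 1.02 FPKM, and Wnt5a, a ligand known for signalling without β-catenin, of 2.57 ± 0.291 and 2.69 ± 0.778 FPKM. Wnt7b, a ligand of lung epithelium, was at 2.17 ± 0.768 against 2.32 ± 0.891 FPKM, and Wnt2b at 2.11 ± 0.482 against 1.78 ± 1.22 FPKM. Wnt2b acts beside Wnt2 in early lung formation. Its irradiated values were spread on both sides of the controls, at 3.19, 1.10 and 1.05 FPKM.

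The other 9 ligands were below the level tested. Wnt5b, with a mean of 0.979 FPKM, was at 1.15, 0.103 and 1.63 FPKM in the controls and at 1.04, 0.917 and 1.03 FPKM in the irradiated libraries. Its level is uncertain, since it overlaps Fbxl14 on the opposite strand and the strand setting of the counting is not given in the sources used here. The measure matters too: its FPKM were 8.65 to 11.7 times what coverage gives in every library but control 2, where the ratio was 1.00. On coverage the libraries had 0.0793 to 0.143, and control 2, at 0.103, was not the lowest. In control 2, low in FPKM only, the assembled locus on its strand had 1.40 FPKM. The cause of the uneven ratio was not tested. The remaining 8, which were Wnt1, Wnt3, Wnt6, Wnt8a, Wnt8b, Wnt9b, Wnt10a and Wnt16, had means under 0.1 FPKM, and 5 of them were listed at 0 in at least 1 library. Of these 8, Wnt6 was higher in all irradiated libraries (0.107 to 0.110 FPKM against 0.0417 to 0.0874) and Wnt3 lower (0.0126 to 0.0331 against 0.0379 to 0.0552). Both were below the level tested, and Wnt3 overlaps Wnt9b on the opposite strand. Without the filter on low values 9 of the 50 genes (18%) had groups that did not overlap, against 17.0% of all genes.

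The summed level of all 19 ligands was 50.6, 52.6 and 48.2 FPKM in the controls against 44.5, 27.9 and 53.6 FPKM after irradiation. Irradiated 2 stood below all other libraries, and irradiated 3 above all controls. As a share of that sum, Wnt2 took 10.2%, 10.2% and 13.4% in the controls and 7.06%, 7.92% and 8.21% in the irradiated libraries. Wnt3a took 15.4 ± 0.533% against 12.9 ± 0.916%, and Wnt7a 10.6 ± 2.30% against 6.92 ± 1.09%. For all 3 the groups did not overlap, also in irradiated 2, whose sum was low. The exact two-sided permutation test gave p = 0.10 for each, the smallest that 3 against 3 libraries allow, and 0.333 after Benjamini-Hochberg adjustment over the 10 ligands tested. The other 7 of the 10 had exact permutation p-values of 0.3 to 0.8. The share of Wnt11 ranged from 9.17% to 26.0% and that of Wnt10b from 10.1% to 19.0%, with both groups mixed. On coverage the share of Wnt11 was smaller, at 9.24% on average in the controls and 13.2% after irradiation, and the groups of Wnt2, Wnt3a and Wnt7a again did not overlap.

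**Figure D2:**
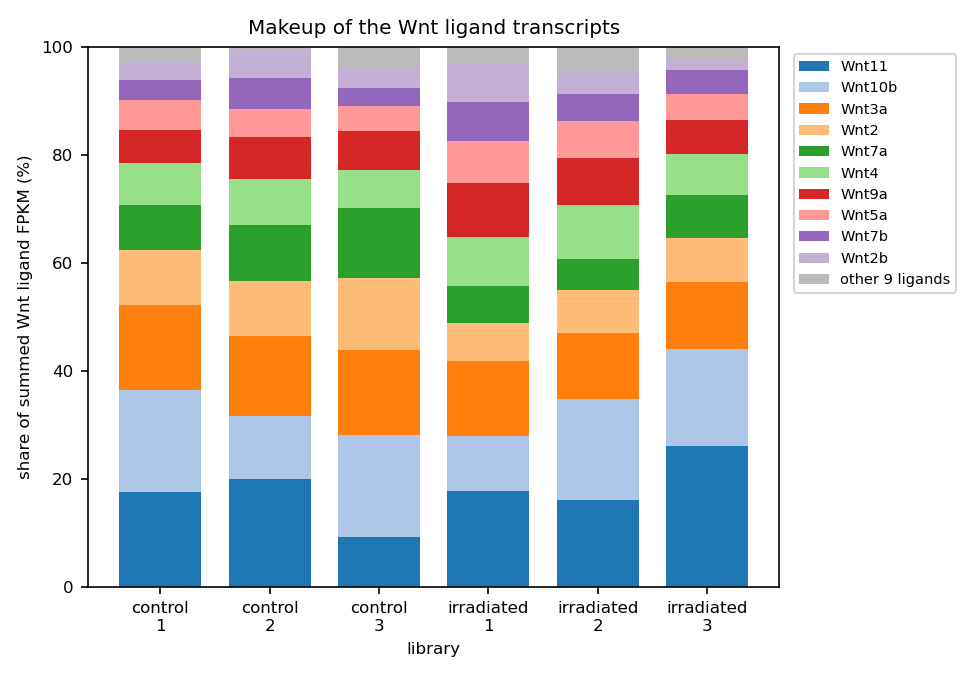
Share of each ligand in the summed FPKM of the 19 Wnt ligands (%), per library, with the 9 ligands of lowest level pooled. The segments of Wnt3a, Wnt2 and Wnt7a are thinner in each irradiated bar than in each control bar, while those of Wnt11 and Wnt10b vary within both groups.

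Among the receptors, levels were close between groups except for Lrp5 and Fzd2. Lrp5, a co-receptor that takes up the Wnt signal together with a frizzled, was at 19.9, 17.9 and 21.0 FPKM in the controls and at 25.3, 28.6 and 24.1 FPKM in the irradiated libraries. The groups did not overlap, and irradiated 2 was highest. The irradiated mean was 133% of the control mean (26.0 ± 2.32 against 19.6 ± 1.59 FPKM), with a log2 change of 0.39 ± 0.10 and a limma adjusted p of 0.139. Its close relative Lrp6 was at 14.1, 11.8 and 12.3 against 13.7, 12.6 and 11.8 FPKM. The 2 groups of Lrp6 covered nearly the same range, with a 95% interval of the log2 change from −0.24 to 0.23. Lrp5 lies on chromosome 19 from 3634825 to 3736574, minus strand.

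Fzd2, a frizzled receptor, was at 6.73, 7.70 and 7.25 FPKM in the controls and at 6.21, 3.11 and 4.22 FPKM in the irradiated libraries. Irradiated 1 lay close under control 1 and the other two were far lower. The mean was 62.5% of the control mean, with a log2 change of −0.61 ± 0.20 and a limma adjusted p of 0.202. Fzd2 lies on chromosome 11 from 102495257 to 102498884, plus strand.

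Fzd4, a receptor for both Wnts and Norrin that is known from blood vessels, had the highest mean FPKM of the family over all libraries, though not in the controls alone, with 24.7, 20.6 and 32.7 FPKM in the controls against 24.4, 34.6 and 29.8 FPKM after irradiation. The groups overlapped widely (log2 change 0.19 ± 0.19, limma adjusted p = 0.649). The level is uncertain, because the gene overlaps Tmem135 on the opposite strand and because its FPKM are 1.45 to 1.74 times what its deposited coverage gives. The assembled loci on its strand held 14.9, 11.4 and 32.7 FPKM in the controls against 24.4, 34.6 and 19.1 FPKM. Of the other tested genes, Fzd6, Rspo1, Wnt11, Wnt7a, Wnt7b and Wnt9a also overlap a gene on the opposite strand, which had at most 1.14 FPKM in any library. Fzd1, Fzd7 and Fzd6 had means over all libraries of 10.5, 9.87 and 9.71 FPKM, and Fzd5, Fzd8 and Fzd3 of 4.22, 4.18 and 1.06 FPKM. Their log2 changes lay between −0.20 (Fzd7) and 0.18 (Fzd5), and no limma adjusted p was below 0.394. Fzd9 and Fzd10 had means under 0.1 FPKM and were not tested. The summed level of the 10 frizzleds was 75.1, 67.2 and 78.1 FPKM in the controls against 70.9, 72.6 and 75.7 FPKM, all inside the control range.

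Rspo1, the R-spondin with the highest level, had the smallest p of the family. R-spondins do not signal alone but strengthen the response to Wnts. Rspo1 was at 10.6, 14.1 and 13.1 FPKM in the controls, against 8.97, 6.35 and 6.87 FPKM in the irradiated libraries. All irradiated values were below all controls, and the mean was 58.7% of the control mean (7.40 ± 1.39 against 12.6 ± 1.81 FPKM). The log2 change was −0.70 ± 0.15 with a 95% interval from −1.06 to −0.34, an unadjusted p of 0.00267 and a limma adjusted p of 0.104. In control 3 the assembled locus of the gene had 27.2 FPKM in place of 13.1, while in the other 5 libraries it had nearly the level of the reference gene. The gene lies on chromosome 4 from 124880197 to 124902895, plus strand.

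The other R-spondins were low and not tested, with Rspo3 at 0.858, 0.460 and 0.822 against 0.456, 0.278 and 0.626 FPKM, Rspo4 at a mean of 0.207 FPKM and Rspo2 at 0.0167 FPKM. For Rspo3 the groups overlapped only between control 2 and irradiated 3. Of the receptors of R-spondins, Lgr4, the widely expressed one, was at 1.13, 1.48 and 1.33 against 1.55, 1.33 and 1.75 FPKM, with overlapping groups (log2 change 0.14 ± 0.14, limma adjusted p = 0.645). Lgr6 was at 0.470, 4.74 and 0.480 FPKM in the controls and at 0.659, 0.284 and 1.67 FPKM in the irradiated libraries. The high value of control 2 set its group mean, and the log2 change was −0.38 with all libraries and 0.28 without control 2. That library also had the highest summed level of 6 smooth muscle markers (161 FPKM, against 74.8 to 110 in the other 5). The same held for markers of cardiac muscle (432 FPKM) and fat (435 FPKM), and for mesothelial, adventitial fibroblast, ciliated and alveolar type 2 markers. The part of these cells in the Lgr6 value was not tested. Lgr5, known as a marker of stem cells in gut and skin, had a mean of 0.140 FPKM.

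Of the secreted antagonists, Sfrp2 had the largest log2 change, on the log2(FPKM + 1) scale, of the 29 tested genes. Sfrp2 carries a domain like that of the frizzleds and binds Wnts outside the cell. It was at 6.53, 11.5 and 8.84 FPKM in the controls and at 4.75, 1.60 and 3.60 FPKM in the irradiated libraries. The groups did not overlap, the highest value being that of control 2 and the lowest that of irradiated 2. The irradiated mean was 37.0% of the control mean (3.31 ± 1.59 against 8.95 ± 2.48 FPKM). The log2 change was −1.25 ± 0.32 with a 95% interval from −2.02 to −0.48, an unadjusted p of 0.00648 and a limma adjusted p of 0.139. Without control 2 and irradiated 2, the libraries at the ends, it was −0.74. The gene lies on chromosome 3 from 83673628 to 83681621, plus strand, and its assembled locus repeated its level in all 6 libraries.

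Beside Rspo1 and Sfrp2, levels of mesothelial and adventitial fibroblast markers are given. Mesothelial cells line the pleura, and adventitial fibroblasts lie in the sheaths of vessels and airways. All 6 mesothelial markers had negative changes, 0 called with limma, 4 with an unadjusted p under 0.05, and 4 with groups that did not overlap, where 14.6% of all genes were apart on the lower side. Their summed level was 160 to 293 FPKM in the controls, highest in control 2, and 80.4 to 144 FPKM in the irradiated libraries, lowest in irradiated 2. Of 8 adventitial fibroblast markers 6 had negative changes, and Dpp4 was called lower with limma (adjusted p = 0.0447), where 0.115% of all genes tested were. The other two had positive changes: Pi16, with 6.78 ± 2.22 against 14.2 ± 6.93 FPKM (limma unadjusted p = 0.0418, adjusted p = 0.263), and Ccl11, with 1.98 ± 1.25 against 2.71 ± 1.45 FPKM. Their summed level was 154 to 268 FPKM against 108 to 219 FPKM, again highest in control 2 and lowest in irradiated 2. No marker of either list was at 0, and the part of these cells in the Rspo1 and Sfrp2 values was not tested.

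Wif1, which binds Wnts directly and keeps them from their receptors, was higher in each irradiated library. It was at 2.16, 1.83 and 1.89 FPKM in the controls and at 2.63, 2.83 and 3.78 FPKM in the irradiated libraries. The groups did not overlap, and irradiated 3 was highest. The mean was 157% of the control mean (3.08 ± 0.615 against 1.96 ± 0.173 FPKM), with a log2 change of 0.45 ± 0.14 and a limma adjusted p of 0.191. Wif1 lies on chromosome 10 from 120869909 to 120936547, plus strand. Sfrp2 and Wif1, both secreted antagonists, thus stood on opposite sides of their controls.

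**Figure D3:**
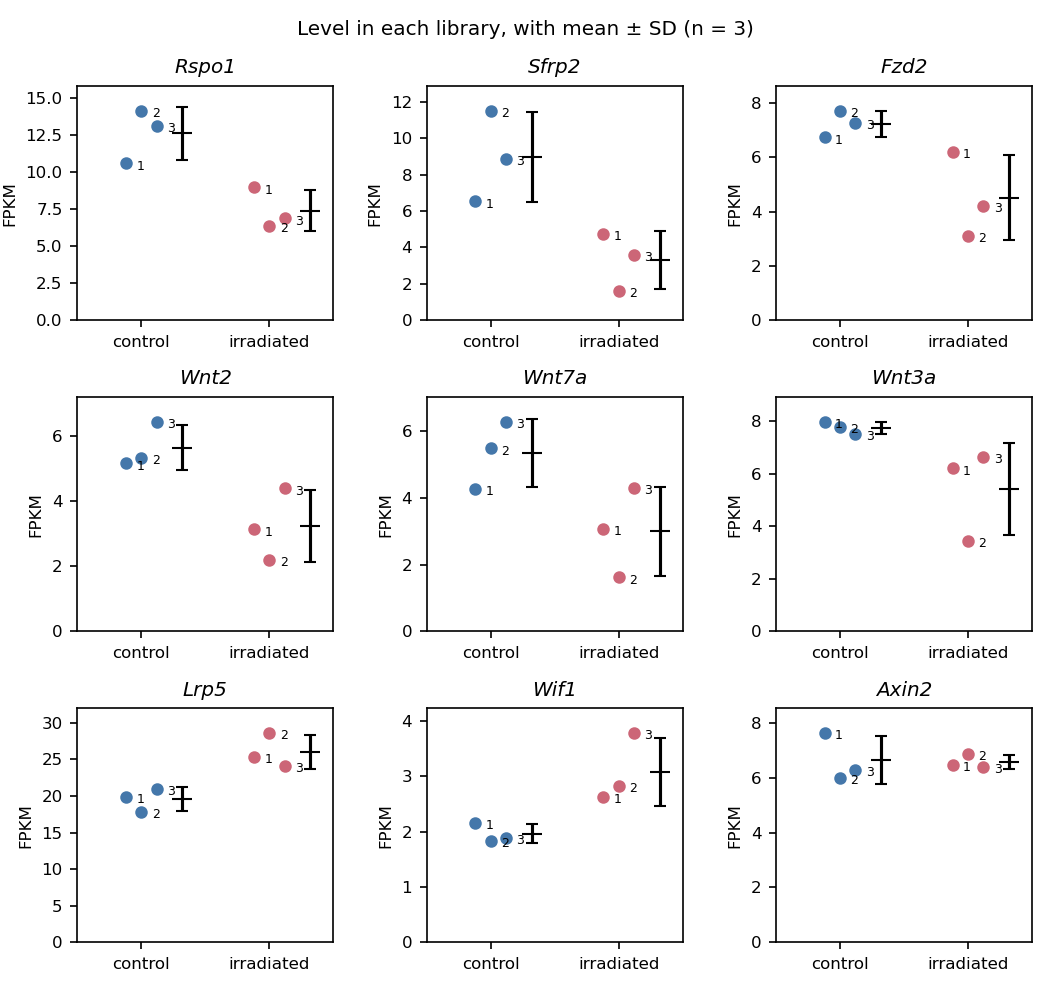
FPKM of 9 genes in each library (points, numbered by replicate) with mean ± SD of 3 libraries per group (bars). Rspo1, Sfrp2, Fzd2, Wnt2 and Wnt3a lie lower and Lrp5 and Wif1 higher in all irradiated libraries than in all controls, Wnt7a overlaps at 1 value, and the 2 groups of Axin2 cover the same levels.

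Dkk3, a DKK family member whose effect on Wnt signalling is not settled, was at 23.7, 32.0 and 26.0 FPKM in the controls and at 32.0, 19.5 and 23.6 FPKM in the irradiated libraries. The irradiated values of Dkk3 lay on both sides of the controls (log2 change −0.13 ± 0.19, limma adjusted p = 0.761). Sfrp1, a relative of Sfrp2, was at 4.86, 7.05 and 4.70 against 12.5, 3.21 and 5.59 FPKM. The highest and the lowest value of Sfrp1 were both in the irradiated group, and its log2 change of 0.16 was −0.29 without irradiated 1. Notum, an enzyme that removes the lipid of Wnts and is itself induced by β-catenin, was at 3.77, 2.17 and 2.25 against 1.14, 1.34 and 2.52 FPKM (log2 change −0.49 ± 0.25, limma adjusted p = 0.349). Irradiated 3 lay inside its control range and the other two below it, and the change was −0.30 without control 1. Sfrp4, Dkk2, Sfrp5, Frzb, Dkk1 and Dkk4 were not tested, with means from 0.662 FPKM (Sfrp4) to 0.000268 FPKM (Dkk4). Dkk1, the best known blocker of LRP5 and LRP6, was between 0 and 0.0544 FPKM in the 6 libraries.

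Axin2, a scaffold of the complex that breaks down β-catenin and at the same time a target of β-catenin, was at 7.62, 6.00 and 6.28 FPKM in the controls and at 6.46, 6.87 and 6.38 FPKM in the irradiated libraries. All irradiated values lay inside the control range. Its log2 change was −0.01 ± 0.11 (limma adjusted p = 0.983), and the 95% interval ran from −0.27 to 0.25 on the log2(FPKM + 1) scale. Its FPKM were 1.58 to 1.61 times what coverage gives, a nearly even ratio over the 6 libraries. Under 3 other scalings its sign turned, with values up to 0.11 with the common sum, which moved the median of all genes by as much. Axin2 lies on chromosome 11 from 108808654 to 108841609, plus strand.

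Other genes of the pathway were read from lists of 74 genes in all, of which 63 were tested and 0 were called with limma. An unadjusted p under 0.05 was reached by 11 of the 63, or 17.5%, 3 higher and 8 lower, against 17.7% of all genes, which is near the background. Groups did not overlap for 6 of the 63 on the higher side and 13 on the lower, or 30.2%, against 24.5% of all genes. Among 16 tested co-receptors and genes of signalling without β-catenin, 3 reached an unadjusted p under 0.05. Gpc3, a glypican of the cell surface, was at 126 ± 25.6 against 75.5 ± 14.3 FPKM (limma adjusted p = 0.138). Tspan12, a partner of Fzd4 in Norrin signalling, was at 24.2 ± 0.939 against 19.9 ± 0.916 FPKM (0.173), and Prickle1, a planar polarity gene, at 19.0 ± 1.93 against 14.7 ± 1.66 FPKM (0.204). All 3 were lower, and their groups did not overlap.

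Of the genes needed to secrete Wnts, Porcn, which adds their lipid, was at 13.9 ± 3.82 against 20.7 ± 3.45 FPKM, and Wls, which carries them out, at 40.0 ± 0.521 against 34.0 ± 7.33 FPKM (limma adjusted p = 0.249 and 0.446). Among 18 tested genes of β-catenin and its cytoplasmic partners 1 reached an unadjusted p under 0.05, Tnks, an enzyme that marks axins for breakdown (4.20 ± 0.450 against 5.42 ± 0.324 FPKM), and Gsk3b, a kinase that marks β-catenin, was at 10.6 ± 0.489 against 11.8 ± 0.167 FPKM. The β-catenin gene Ctnnb1 was at 223 ± 8.55 against 195 ± 13.9 FPKM (limma adjusted p = 0.360). Of 13 nuclear partners the co-repressor Tle2 had the smallest p of the pathway lists, at 10.5 ± 1.48 against 6.36 ± 0.583 FPKM (limma adjusted p = 0.0864). Tcf7l2, a TCF factor, was at 3.13 ± 0.416 against 2.47 ± 0.280 FPKM (limma adjusted p = 0.367), and Tle3 at 9.76 ± 0.811 against 11.3 ± 0.861 FPKM (0.360). Groups overlapped for Porcn and Tle3, and did not for Wls, Tnks, Gsk3b, Ctnnb1, Tle2 and Tcf7l2.

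Among 13 tested common target genes 5 reached an unadjusted p under 0.05, 1 higher and 4 lower, where 17.7% of all genes tested did, and the median log2 change of the list was −0.05. The higher one was Cd44, an adhesion receptor, at 25.8 ± 1.68 against 36.6 ± 9.79 FPKM (limma adjusted p = 0.250), and its groups did not overlap. Those of Myc, the growth regulator, did not overlap either, at 2.58 ± 0.227 against 3.30 ± 0.486 FPKM (limma adjusted p = 0.343). Both were named after their values were seen. Sp5, a transcription factor, was at 1.71 ± 0.529 against 0.699 ± 0.0854 FPKM, and Bambi, a pseudoreceptor of the TGF-β family, at 4.52 ± 0.257 against 3.21 ± 0.304 FPKM (limma adjusted p = 0.157 and 0.155). Rnf43, a target that removes frizzleds from the surface and is countered by R-spondins, was at 1.85 ± 0.308 against 0.944 ± 0.407 FPKM (0.207). All 3 were lower, and their groups did not overlap. The remaining lower target was Tnfrsf19, at 10.6 ± 0.462 against 8.13 ± 1.88 FPKM (limma adjusted p = 0.268), with overlapping groups. It too was named after its values were seen. Rnf43 also stands in the list of other antagonists, where 1 of 6 tested genes reached an unadjusted p under 0.05. The next 2 of that list were Apcdd1, a Wnt inhibitor of the membrane, at 3.11 ± 0.481 against 3.82 ± 0.794 FPKM, and Kremen1, a receptor of DKKs, at 12.3 ± 1.21 against 14.6 ± 2.95 FPKM, both with overlapping groups.

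Libraries did not contribute evenly to these values. Irradiated 2 was the lowest of the 6 libraries for 16 of the 29 tested genes, and for 36.9% of all genes tested. It was also the deepest library, with 10.4 Gb of aligned sequence implied by the deposited coverage against 5.11 to 6.77 Gb in the other 5. Its summed level of 6 neutrophil markers was 4696 FPKM, against 75.9 to 503 FPKM in the controls, 218 FPKM in irradiated 1 and 1417 FPKM in irradiated 3, and that of 5 red cell markers 6251 FPKM, against 1346 to 1707 FPKM. Markers of cardiac muscle and fat were at their lowest in irradiated 2 (8.38 and 6.91 FPKM) and at their highest in control 2 (432 and 435 FPKM). The part of these cells in the Wnt gene values was not tested. Without control 2 and irradiated 2, the 5 lower and 2 higher genes kept their direction, with log2 changes of −0.53 (Rspo1), −0.74 (Sfrp2), −0.38 (Fzd2), −0.52 (Wnt2), −0.24 (Wnt3a), 0.26 (Lrp5) and 0.46 (Wif1).

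**Figure D4:**
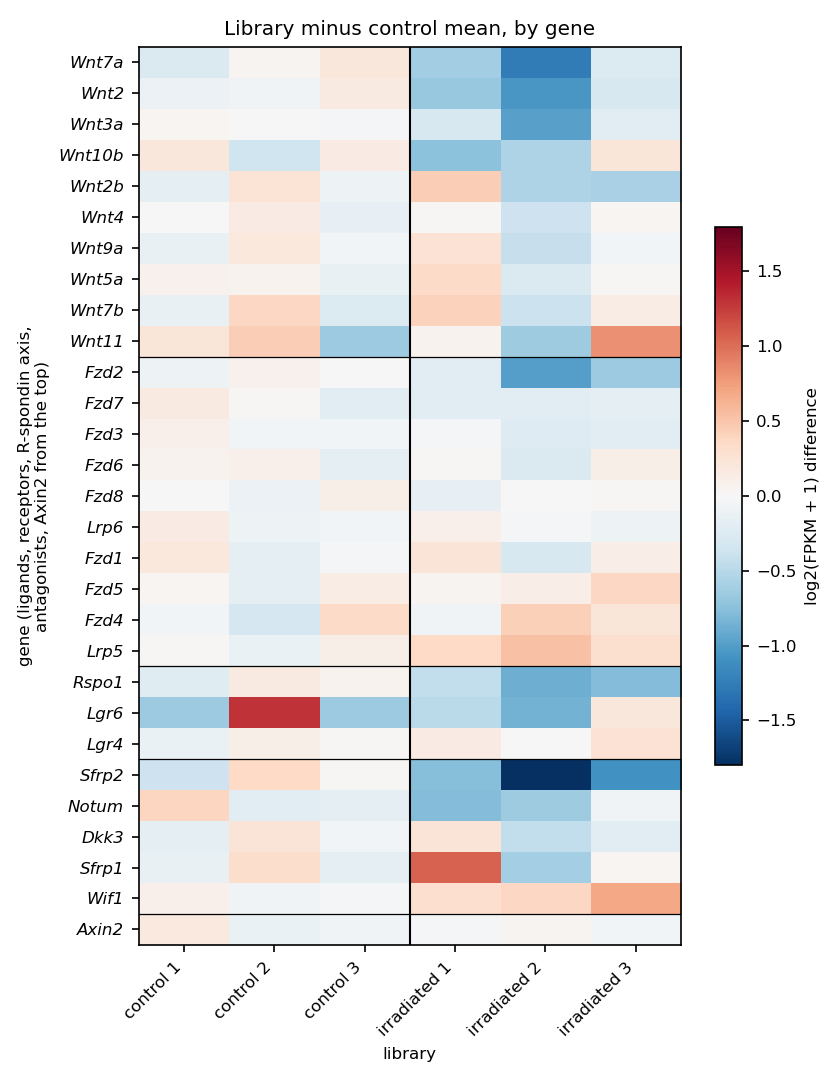
Level of the 29 tested genes in each library minus the control mean, on the log2(FPKM + 1) scale, in the order of the plot of changes. Irradiated 2 is the lowest column for 16 of the 29 genes, while Lrp5, Wif1, Fzd5 and Lgr4 are above the control mean in all 3 irradiated columns.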

How the data were processed

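PolyA RNA of whole lung was sequenced in 6 libraries on a DNBSEQ-T7, per the labels' protocols. Per the submitters' processing notes, GRCm39 was the build, and the tools named are DESeq2, STAR 2.7.6a and fastp. How the tables were made, with which annotation and strand setting, is not given in the sources used here. The values are FPKM as deposited by the authors, per the file headers. The deposited coverage (signal per base) served to estimate depth and as an alternative level. The deposited TPM were not used. Assembled loci without a name served only as a check.

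FPKM were summed per gene. Those reaching 1 FPKM on average over the 6 libraries were tested with limma 3.58.1 (R 4.3.3) on log2(FPKM + 1), with trend and robust variance, the group as its term and Benjamini-Hochberg adjustment over all 13908 genes. The fit was tested on simulated data. Every member is accounted for. The rule for named genes was to give values per library for members with an unadjusted p under 0.05 or groups that do not overlap, and for the 3 highest per role. For other pathway genes it was the smallest p in their list, up to 3 per list. The members and lists were chosen with earlier results of these data known. Positions are those of the files, in GRCm39. Python 3.11.15, pandas 2.3.3 and scipy 1.17.1 were used.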

Additional observations from a re-analysis of the deposited data

How the results depend on the processing

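No Wnt family gene and no other pathway gene was called with limma in any of the 20 alternatives (0 in each), and the lowest adjusted p of a member was 0.0672. All 8 genes described as apart or at an unadjusted p under 0.05 kept their direction in each of the 19 or 20 alternatives that gave them a value. The number of calls among all genes, 25 as deposited, was 0 with no filter on low values, 0 with an unmoderated linear model, 13 with a mean of at least 0.1 FPKM, 38 with a mean of at least 5 FPKM, 11 with median-ratio scaling, 13 with a common sum, 9 without control 2 and irradiated 2, 15 with coverage in place of FPKM (chosen after seeing the data), and 0 to 116 when each library was left out in turn (0, 1 and 0 without control 1, 2 and 3, and 100, 3 and 116 without irradiated 1, 2 and 3). With the replicate number as a block, 0 genes and 0 members were called, with 7 members (24.1%) and 11.7% of all genes at an unadjusted p under 0.05. Same-numbered libraries did not deviate together (r = −0.17, −0.54 and −0.28). The labels do not say whether the numbers pair the libraries, and these correlations, over 3 libraries per group, cannot settle it. The count of members whose groups do not overlap, 7, was 12 without control 2 and irradiated 2 (41.4%, against 43.5% of all genes), 5 of 15 with a mean of at least 5 FPKM (33.3%, against 26.7%), and 7 to 11 with single libraries left out (11 without irradiated 3, 37.9% against 39.7%). The common sum moved the median of all genes by 0.11. Changes near 0 turned their sign. Axin2 and Lrp6 were at 0.032 and 0.036 with median-ratio scaling, at 0.11 and 0.12 with the common sum (−0.0042 and 0.0055 relative to that shift), and at 0.0087 and 0.011 with upper-quartile scaling, and Axin2 was at 0.0016 with coverage. With the common sum Fzd6, Fzd8 and Wnt9a were at 0.070, 0.060 and 0.032. Without control 2 and irradiated 2, Dkk3 was at 0.14, Fzd4 at −0.076, Fzd6 at 0.11, Lgr6 at 0.51, Wnt2b at 0.047, Wnt4 at 0.10 and Wnt9a at 0.20. With single libraries left out the changes were −0.066 to 0.084 (Axin2), −0.32 to 0.024 (Dkk3), −0.084 to 0.18 (Fzd1), −0.13 to 0.057 (Fzd6), −0.10 to 0.0092 (Fzd8), −0.71 to 0.28 (Lgr6), −0.056 to 0.066 (Lrp6), −0.29 to 0.55 (Sfrp1), −0.29 to 0.44 (Wnt11), −0.18 to 0.030 (Wnt4), −0.13 to 0.18 (Wnt5a), −0.13 to 0.27 (Wnt7b) and −0.23 to 0.11 (Wnt9a). Without turning sign, single libraries moved Fzd4 (0.041 to 0.36), Fzd5 (0.082 to 0.24), Fzd7 (−0.29 to −0.11), Lgr4 (0.077 to 0.20), Notum (−0.71 to −0.30), Wnt2b (−0.57 to −0.059), Wnt3a (−0.63 to −0.24), Wnt7a (−0.94 to −0.44) and Wnt10b (−0.65 to −0.17) by over 1.5 times. The cause of these shifts was not tested. The tables hold no read counts, so the error of counting is unknown.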
